A study of Sus scrofa with 15 samples.

Results

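Activated fibroblasts and myofibroblasts are the cells that lay down and pull on matrix in a healing wound, and 10 genes that mark them were followed here through 5 groups of pig (Sus scrofa) corpus cavernosum, the erectile body of the penis. The genes were given by name (POSTN, TNC, FN1, CTHRC1, ITGA11, CDH11, LRRC15, FAP, ADAM12 and INHBA), and all 10 were found among the 26654 genes of the deposited count and TPM tables (the 10 are also called the members below). The groups, of 3 libraries each, are named in the labels as ECs+ implantation, implantation B, implantation A, defect and normal. The labels give tissue and species for all 15 libraries, but no age, breed, time after surgery, implant material or meaning of ECs, nor how implantation A differs from implantation B, nor whether replicate libraries stem from different animals. P-values therefore reflect only how far libraries of a group differ, and that spread could be technical. By the study's design, every pair among implantation A, defect and normal is compared, and ECs+ implantation is set beside implantation B. Implantation B vs implantation A, implantation B vs normal and ECs+ implantation vs normal are not pairs of that design and were added so that each gene could be followed across the groups.

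As background, resting fibroblasts become activated after injury, under transforming growth factor beta, activin and the stiffness of the matrix, and those that also build contractile actin bundles are called myofibroblasts. They secrete provisional matrix proteins such as fibronectin, tenascin-C and periostin, hold on to collagen and to each other through integrins and cadherins, and carry proteases on their surface. In the corpus cavernosum, matrix of this kind lies between the vascular spaces, where an excess of it stiffens the tissue. Because these are bulk samples, fewer cells of a type and less RNA per cell cannot be told apart in any result that follows.

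Levels of single genes are CPM, counts relative to library size after TMM scaling over all 15 libraries, unless TPM is named. Total counts ran from 17234169 to 19644793 in 13 libraries, while defect 1 and defect 2 held 207769 and 250178. In those 2 libraries 3 counts correspond to 14.0 and 12.0 CPM, so a gene such as LRRC15 is at the limit of what they can show. Defect 3 carries most of the counts of the defect group, and values without it, or without the other 2, are given where a call changed. A further description line for ECs+ implantation carries the name of a normal sample, so its group was taken from the sample titles and the tables' headers. The ECs+ implantation libraries also stood apart in epithelial markers: the 8 keratinocyte and urothelial markers in the table summed to 3.45 to 3.81 CPM there and to 4222 to 4298 in implantation B, 3606 to 3627 in implantation A, 3187 to 3902 in defect and 1602 to 1705 in normal, with UPK2 at 0 in all 3 ECs+ implantation libraries. Transcripts of smooth muscle and endothelium were present in each group. MYH11 (smooth muscle myosin) lay between 949 and 1913 CPM and PECAM1 (an endothelial adhesion molecule) between 412 and 1185 CPM over all libraries. Neither gene shows by itself that all groups sampled the same tissue.

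Set against implantation B, ECs+ implantation had lower transcripts of 9 of the 10 genes, and the row named INHBA was the exception. By edgeR's quasi-likelihood test with Benjamini-Hochberg adjustment over all genes, at an adjusted p under 0.05, 9 fell and 1 rose, where 38.1% of the 17204 genes tested were lower and 37.8% higher. Here and below such shares are background and no test of the set, since the 10 genes were chosen with earlier results of these data known. The median log2 fold change was -1.69 over the 10 genes and 0.018 over all genes tested. With library size alone as scaling, which moves the median of all genes to 0.26, 9 of the 10 were lower and 1 higher. The fall was steepest for POSTN, at 27.2-fold lower, and shallowest for FAP, at 1.59-fold lower.

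Defect had higher transcripts than normal of 9 of the 10 genes, and INHBA did not pass. Of all 17855 genes tested, 32.0% were higher and 31.9% lower. The median log2 fold change of the 10 genes was 2.56, beside -0.048 over all genes tested. With library size alone, which moves the median of all genes to -0.41, 9 of the 10 were higher and 1 lower. Without defect 3 the genes called in the whole table numbered 3521, against 11407 with it, and 8 of the 10 genes passed. Without defect 1 and 2, which leaves defect 3 alone, taken to vary as much as libraries elsewhere do, 9 of the 10 passed, all higher.

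Implantation A lay between these groups: 9 of the 10 genes were lower than in defect, where 21.4% of all genes tested were lower and 20.4% higher, and 9 were higher than in normal, where 32.2% were higher and 32.3% lower. The median log2 fold change of the 10 genes was -1.25 for implantation A vs defect and 1.17 for implantation A vs normal, beside 0.021 and -0.025 over all genes tested. These 2 comparisons share the implantation A libraries and both share libraries with defect vs normal, so their counts are not independent of each other. Without defect 3, 6 of the 10 genes were called lower than in defect and 1455 genes were called in the whole table, against 7465 with it.

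Outside the study's own pairs, implantation B had 7 of the 10 genes higher and 2 lower than implantation A, where 27.2% of the 18316 genes tested were higher and 23.6% lower. Implantation B had 8 higher and 2 lower than normal, where 37.1% of genes were higher and 36.7% lower. ECs+ implantation had 5 higher and 3 lower than normal, where 35.7% were higher and 35.6% lower, so there the split of the 10 genes was nearer to that of the whole table. The median log2 fold change of the 10 genes was 0.58 for implantation B vs implantation A, 1.96 for implantation B vs normal and 0.39 for ECs+ implantation vs normal.

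**Figure D1:**
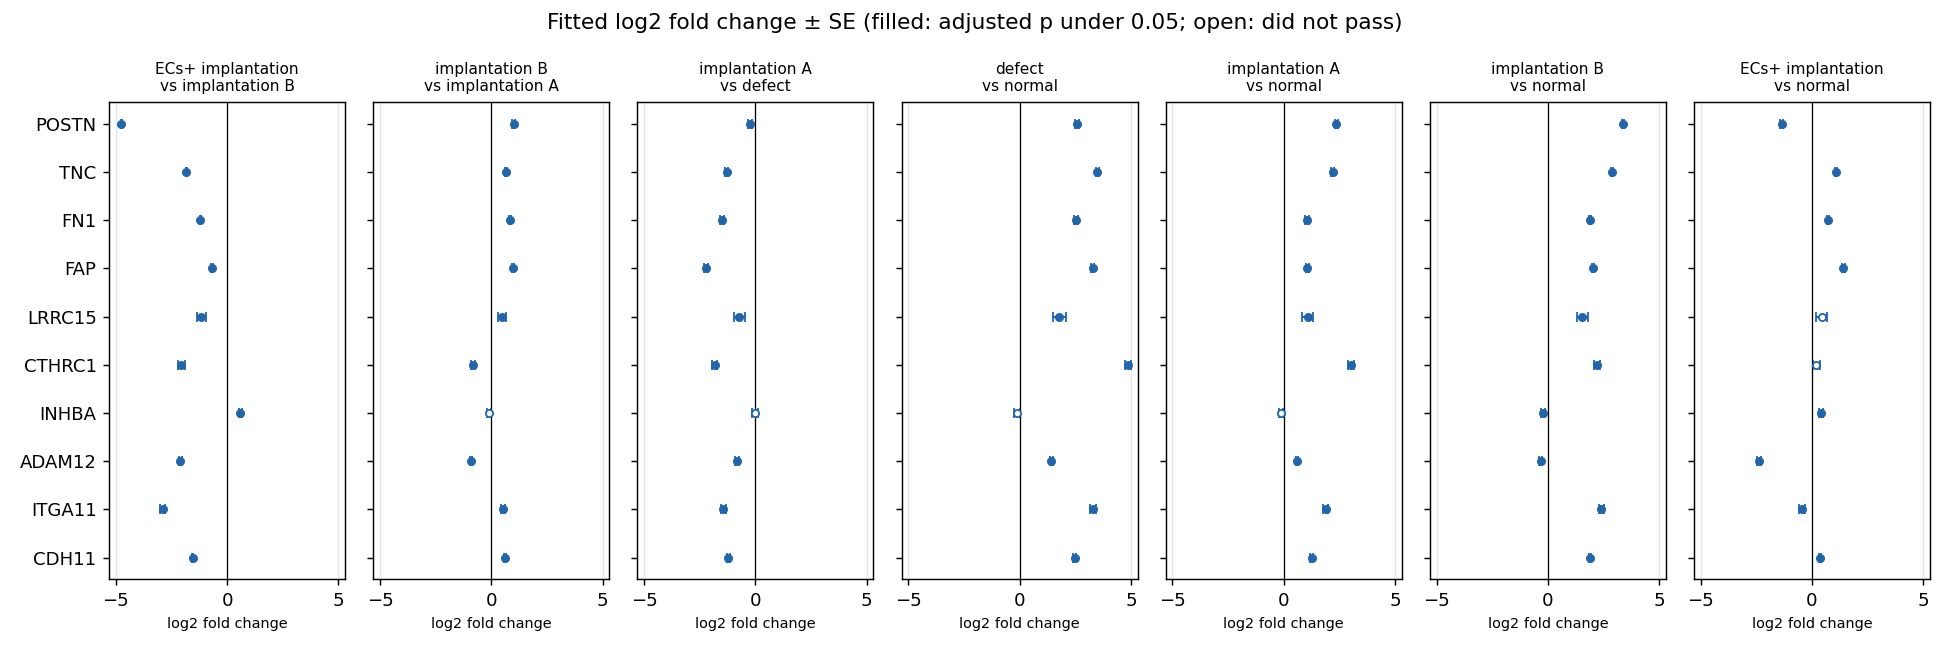
Fitted log2 fold change with its SE (x axis) of each of the 10 genes (y axis) in 7 comparisons, filled where the adjusted p was under 0.05 and open where it was not. In defect vs normal the 9 filled points lie to the right of 0, between 1.43 and 4.87, and in ECs+ implantation vs implantation B 9 lie to the left, between -4.76 and -0.66.

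The first group of genes codes for secreted matrix proteins. POSTN, periostin, is a matricellular protein that binds integrins and type I collagen, and lies on chromosome 11 from 13225183 to 13258973 on Sscrofa11.1. Its level was 169.7, 169 and 176 CPM in ECs+ implantation, 4561, 4542 and 4565 in implantation B, 2278, 2312 and 2224 in implantation A, 2323, 2526 and 2928 in defect and 394, 441 and 485 in normal (libraries 1, 2 and 3 of each group). In CPM no 2 neighbouring groups in the order implantation B, defect, implantation A, normal, ECs+ implantation overlapped. The log2 fold change was -4.76 ± 0.02 for ECs+ implantation vs implantation B (SE, adjusted p = 1.67e-70), a 27.2-fold lower level, and -1.36 ± 0.059 for ECs+ implantation vs normal (adjusted p = 3.36e-30). Against normal it was 2.59 ± 0.083 in defect (adjusted p = 1.01e-44), 2.36 ± 0.076 in implantation A (adjusted p = 1.26e-43) and 3.37 ± 0.056 in implantation B (adjusted p = 6.3e-52). ECs+ implantation thus stood below normal in POSTN, with every library under the lowest normal one. Implantation A vs defect gave -0.23 ± 0.082 (adjusted p = 0.0165), a call that was lost when any 1 of the implantation A libraries was left out, with values of -0.22, -0.23 and -0.20 (adjusted p = 0.086, 0.0699 and 0.123), and without defect 3 (-0.094, adjusted p = 0.525). Without defect 1 and 2 it was -0.37 (adjusted p = 0.00129). The call was also lost with library size alone (-0.044, adjusted p = 0.65), TPM plus 1 or 0.1 (-0.051 and -0.051, adjusted p = 0.617 and 0.611) and limma-voom (-0.29, adjusted p = 0.106), and in TPM implantation A overlapped defect. Implantation B stood above implantation A, with 1.0 ± 0.055 (adjusted p = 1.34e-24). A lncRNA, LOC102166397, overlaps POSTN and had between 0 and 5 counts in every library, against at least 497 counts of POSTN.

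TNC, tenascin-C, is a matricellular glycoprotein that appears in healing wounds and remodelling tissue (chromosome 1, 255533235 to 255630381). It stood at 149, 149 and 141 CPM in ECs+ implantation, 498, 513 and 509 in implantation B, 314, 317 and 323 in implantation A, 697, 641 and 828 in defect and 70.7, 70.3 and 65.2 in normal. The groups did not overlap, with defect highest and normal lowest, 11.3-fold apart by the fitted model. The log2 fold change was 3.49 ± 0.077 in defect vs normal (SE, adjusted p = 3.41e-58), -1.29 ± 0.073 in implantation A vs defect (adjusted p = 3.5e-28) and 2.21 ± 0.065 in implantation A vs normal (adjusted p = 4.7e-47). For ECs+ implantation it was -1.83 ± 0.028 against implantation B (adjusted p = 1.21e-46) and 1.09 ± 0.053 against normal (adjusted p = 3.1e-30). Unlike POSTN, TNC therefore kept a level above normal in ECs+ implantation, in 3 of 3 libraries. With TPM plus 1 that log2 fold change over normal was smaller, at 0.65, and still passed.

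FN1, fibronectin, is a matrix glycoprotein that cells bind through integrins (chromosome 15, 117658158 to 117737145). It measured 1615, 1605 and 1610.2 CPM in ECs+ implantation, 3559, 3618 and 3637 in implantation B, 1986, 2014 and 1991 in implantation A, 5255, 5113 and 6213 in defect and 985, 979 and 941 in normal. Groups followed the same order as for TNC, with no overlap. Defect stood 5.78-fold above normal (log2 fold change 2.53 ± 0.08 SE, adjusted p = 9.61e-45), and implantation A 2.81-fold below defect (-1.49 ± 0.079, adjusted p = 3.74e-29) and 2.06-fold above normal (adjusted p = 1.86e-21). ECs+ implantation was 2.29-fold below implantation B (-1.20 ± 0.017, adjusted p = 2.2e-47) and 1.66-fold above normal (adjusted p = 4.61e-21). With TPM plus 1 the log2 fold change of FN1 over normal there was 0.31, against 0.73 from counts, and still passed. The counts are per gene and do not tell fibronectin's splice forms apart.

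CTHRC1, a secreted glycoprotein described in injured rat arteries and in fibrotic tissue of mouse and human, ranged widely over the groups (chromosome 4, 33759541 to 33771625). It measured 3.23, 2.97 and 4.44 CPM in ECs+ implantation, 15, 15.8 and 12.7 in implantation B, 26.4, 26 and 24.5 in implantation A, 74.8, 84.1 and 92.6 in defect and 3.41, 2.76 and 3.14 in normal. The group means of defect and normal were 27.0-fold apart, while ECs+ implantation and normal overlapped. In the shallow defect libraries these levels rest on 16 and 21 counts. The log2 fold change was 4.87 ± 0.14 in defect vs normal (SE, adjusted p = 1.73e-53), -1.83 ± 0.099 in implantation A vs defect (adjusted p = 7.37e-30), 3.04 ± 0.13 in implantation A vs normal (adjusted p = 1.07e-39) and -2.06 ± 0.15 in ECs+ implantation vs implantation B (adjusted p = 1.77e-18). ECs+ implantation vs normal gave 0.20 ± 0.17 and did not pass (adjusted p = 0.295), and its sign turned with TPM (-0.15). CTHRC1 was lower in implantation B than in implantation A, by a log2 fold change of -0.82 ± 0.095 (adjusted p = 7.2e-12), while TNC (0.67 ± 0.046, adjusted p = 1.76e-21) and FN1 (0.85 ± 0.052, adjusted p = 4.54e-24) were higher there. Against normal, implantation B had log2 fold changes of 2.22 ± 0.14 for CTHRC1, 2.88 ± 0.051 for TNC and 1.90 ± 0.052 for FN1 (adjusted p = 1.77e-25, 8.32e-58 and 6.19e-45).

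**Figure D2:**
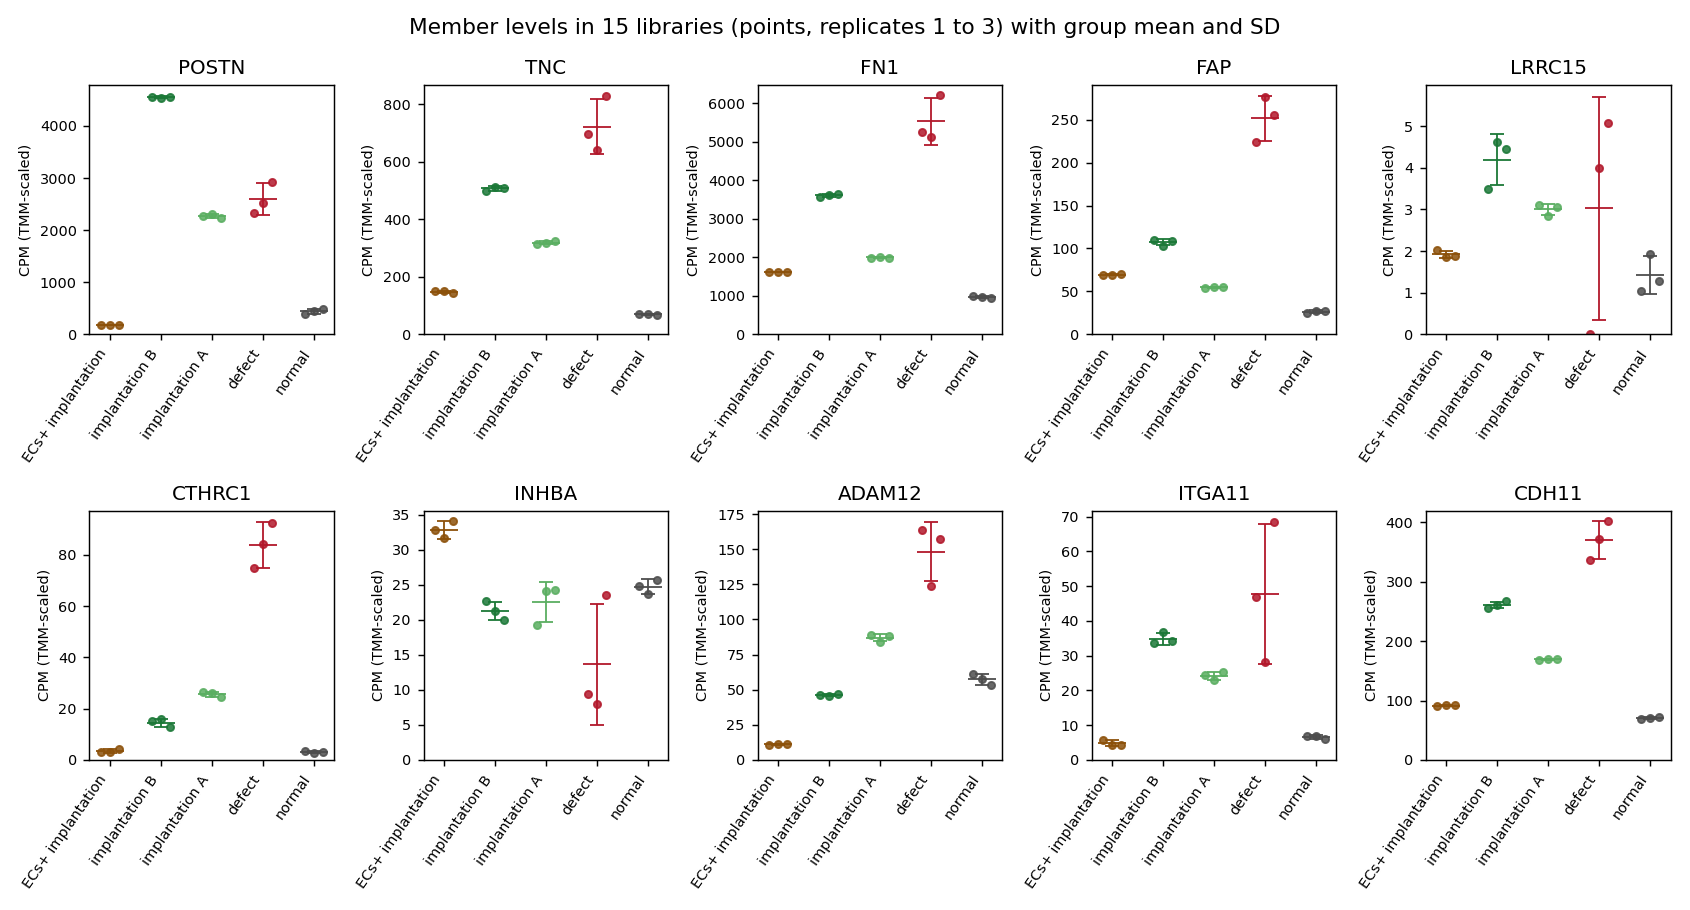
TMM-scaled CPM (y axis, from 0) of each gene in the 3 libraries of each group (points), with the group mean (line) and SD (bars). The defect points are the highest in the panels of TNC, FN1, FAP, CTHRC1, ADAM12 and CDH11, POSTN peaks in implantation B near 4556 CPM, and INHBA in CPM is highest in ECs+ implantation.

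The second group codes for proteins of the cell surface that hold matrix or neighbouring cells. ITGA11 is the integrin chain that joins ITGB1 to form a receptor for fibrillar collagen on fibroblasts (chromosome 1, 166186601 to 166311046). Its level was 5.75, 4.34 and 4.28 CPM in ECs+ implantation, 33.6, 36.8 and 34.2 in implantation B, 24.4, 22.9 and 25.3 in implantation A, 46.7, 28 and 68.5 in defect and 7.02, 6.76 and 5.88 in normal. Defect overlapped implantation B, and its shallow libraries held 10 and 7 counts. The log2 fold change was -2.90 ± 0.11 in ECs+ implantation vs implantation B (SE, adjusted p = 1.86e-30) and 3.32 ± 0.13 in defect vs normal (adjusted p = 3.25e-41). Leaving out defect 3 lowered the defect vs normal value to 2.48 (adjusted p = 3.39e-05). Implantation A vs defect gave -1.44 ± 0.11 (adjusted p = 8.33e-21), and without defect 3 it was -0.60 and did not pass (adjusted p = 0.422), nor did it with TPM (-0.68 and -0.73, adjusted p = 0.0682 and 0.0746). Implantation A vs normal gave 1.88 ± 0.11 (adjusted p = 4.79e-28). Like POSTN, ITGA11 was lower in ECs+ implantation than in normal, with a log2 fold change of -0.45 ± 0.14 (adjusted p = 0.0028), in 3 of 3 libraries.

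CDH11 is a cadherin that joins mesenchymal cells to each other (chromosome 6, 25782746 to 25933753). It stood at 90.0, 92.4 and 92 CPM in ECs+ implantation, 257, 260.5 and 267 in implantation B, 169, 169 and 169 in implantation A, 337, 372 and 402 in defect and 69.4, 69.8 and 72.1 in normal. No groups overlapped in CPM, and the order was that of TNC and FN1. Defect was 5.55-fold above normal (log2 fold change 2.47 ± 0.075 SE, adjusted p = 1.67e-48), and implantation A was 2.32-fold below defect (adjusted p = 3.34e-27) and 2.39-fold above normal (adjusted p = 7.56e-33). ECs+ implantation was 2.93-fold below implantation B (-1.55 ± 0.033, adjusted p = 3.61e-40). Its log2 fold change of 0.38 ± 0.05 over normal (adjusted p = 4.3e-10) did not pass with TPM, where it was 0.0047 and the groups overlapped.

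LRRC15, a membrane protein with leucine-rich repeats that marks fibroblasts driven by transforming growth factor beta in human and mouse tumours, was the lowest of the 10 (chromosome 13, 131339778 to 131354691). Its raw counts were 37, 34 and 36 in ECs+ implantation, 57, 71 and 77 in implantation B, 64, 57 and 60 in implantation A, 0, 1 and 76 in defect and 20, 37 and 25 in normal. In defect 1 and 2 these lie below the floor of 3 counts, so the defect value rests on defect 3, at 5.09 CPM. Scaled levels were 2.03, 1.87 and 1.88 CPM in ECs+ implantation, 3.49, 4.63 and 4.46 in implantation B, 3.09, 2.85 and 3.05 in implantation A and 1.05, 1.92 and 1.29 in normal. ECs+ implantation overlapped normal, and defect overlapped each other group. ECs+ implantation vs implantation B gave -1.16 ± 0.21 (SE, adjusted p = 3.25e-06). Implantation A vs normal gave 1.07 ± 0.23 (adjusted p = 2.21e-05), a call lost with DESeq2 (1.02, adjusted p = 0.0739) and with TPM plus 1 or 0.1 (0.45 and 1.03, adjusted p = 0.372 and 0.637). Implantation B vs normal gave 1.56 ± 0.23 (adjusted p = 2.66e-09), lost with TPM (0.58 and 1.26, adjusted p = 0.07 and 0.238). Defect vs normal gave 1.79 ± 0.29 (adjusted p = 6.68e-08), a call lost without defect 3 (0.60, adjusted p = 0.817), with limma-voom (1.36, adjusted p = 0.0651) and with TPM (0.27 and 0.15, adjusted p = 0.482 and 0.909). Other calls changed with single libraries. Implantation A vs defect (-0.72 ± 0.26, adjusted p = 0.0201) did not pass without implantation A 2 (-0.68) and turned in sign without defect 3 (0.48) and with TPM (0.18 and 0.88). It was also lost with library size alone (-0.41, adjusted p = 0.18), DESeq2 (-0.54, adjusted p = 0.617) and limma-voom (-0.53, adjusted p = 0.602). Implantation B vs implantation A (0.48 ± 0.19, adjusted p = 0.0318) did not pass without implantation B 2 (0.41), implantation B 3 (0.44), implantation A 1 (0.51), implantation A 2 (0.45) or implantation A 3 (0.50), nor with RLE factors (0.43, adjusted p = 0.056), library size alone (0.23, adjusted p = 0.296), DESeq2 (0.43, adjusted p = 0.329) or TPM (0.13 and 0.23, adjusted p = 0.808 and 0.942). ECs+ implantation vs normal (0.43 ± 0.25, adjusted p = 0.107) did not pass, but did without normal 2 (0.63).

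In implantation B, ITGA11 and CDH11 stood above normal by 2.41 ± 0.11 and 1.89 ± 0.048 (adjusted p = 6.95e-34 and 3.43e-48). Against implantation A, CDH11 was 0.63 ± 0.044 (adjusted p = 7.33e-21) and ITGA11 0.53 ± 0.084 (adjusted p = 1.66e-07), a call of ITGA11 that did not hold with TPM (0.28, adjusted p = 0.408).

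The third group holds surface proteases. FAP is a membrane serine protease that cleaves after proline and marks reactive stroma (chromosome 15, 68831281 to 68902416). It measured 68.9, 69.1 and 70.1 CPM in ECs+ implantation, 109.6, 103 and 109 in implantation B, 54.2, 54.8 and 55.5 in implantation A, 224, 276 and 256 in defect and 24.5, 27 and 27.2 in normal. The 5 groups did not overlap. Defect stood 9.71-fold above normal (log2 fold change 3.28 ± 0.082 SE, adjusted p = 6.64e-55), and implantation A stood 4.66-fold below defect (-2.22 ± 0.077, adjusted p = 2.23e-43), the steepest fall among the 10 in that comparison. Implantation A was above normal by 1.06 ± 0.071 (adjusted p = 3.73e-24). ECs+ implantation was below implantation B (-0.66 ± 0.042, adjusted p = 6.23e-20), yet above normal (1.40 ± 0.061, adjusted p = 1.38e-33), and in CPM its mean lay above that of implantation A. That order turned with TPM, at 32.9, 33.6 and 34.2 TPM in ECs+ implantation and 37.1, 38 and 37.9 in implantation A. Implantation B was above implantation A by 0.97 ± 0.053 (adjusted p = 8.41e-27) and above normal by 2.03 ± 0.059 (adjusted p = 1.3e-44).

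ADAM12 is a membrane metalloprotease that marks matrix-producing progenitors around vessels after injury in mouse (chromosome 14, 135302188 to 135682144). It stood at 10.3, 11.4 and 11.3 CPM in ECs+ implantation, 46.1, 45.3 and 46.7 in implantation B, 88.7, 83.9 and 88.5 in implantation A, 164, 124 and 157 in defect and 61.4, 57.6 and 53.5 in normal. No groups overlapped, and both ECs+ implantation and implantation B lay below normal, at log2 fold changes of -2.39 ± 0.079 (SE, adjusted p = 3.74e-42) and -0.32 ± 0.061 (adjusted p = 2.5e-06). ECs+ implantation vs implantation B gave -2.10 ± 0.079 (adjusted p = 5.36e-30), and implantation B vs implantation A gave -0.92 ± 0.059 (adjusted p = 2.84e-23). Defect vs normal gave 1.43 ± 0.082 (adjusted p = 8.23e-29), implantation A vs defect -0.84 ± 0.08 (adjusted p = 1.08e-15) and implantation A vs normal 0.59 ± 0.063 (adjusted p = 6.99e-14). FANK1 overlaps ADAM12 in the annotation and had 0 to 166 counts per library. Its mean was 6.65 ± 0.345 CPM in ECs+ implantation and 7.73 ± 1.47 CPM in normal (SD, n = 3). How reads of the shared stretch were assigned is not known, since use of strand in counting is not stated.

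INHBA codes for the chain of activin A, a ligand of the transforming growth factor beta family. In the RefSeq gene table of this build the symbol has 1 entry, of biotype other and 1750 bases long, on chromosome 12 from 53115379 to 53117128, between NAA38 and CHD3. GLI3 and SUGCT, which flank INHBA in human, lie on chromosome 18 in the same table, from 52403463 to 52697906 and from 53639588 to 54283272, with no INHBA entry between them. Whether the row's counts come from the activin gene was not tested, so its values are given for the row as named. They were 32.8, 31.6 and 34.2 CPM in ECs+ implantation, 22.7, 21.3 and 20.1 in implantation B, 19.2, 24.2 and 24.3 in implantation A, 9.35, 8.01 and 23.6 in defect and 24.8, 23.7 and 25.8 in normal. In CPM, ECs+ implantation stood above the other groups in 3 of 3 libraries, and the other groups overlapped their neighbours. In TPM, ECs+ implantation (27.7, 27.2 and 29.3) overlapped implantation A (23, 29.3 and 29) and normal (27.6, 26.4 and 28.8). In defect 1 and 2 the row held 2 counts each. ECs+ implantation vs implantation B gave 0.59 ± 0.073 (SE, adjusted p = 3.99e-10) and ECs+ implantation vs normal 0.41 ± 0.081 (adjusted p = 7.56e-06), a call lost with DESeq2 (0.31, adjusted p = 0.192) and with TPM plus 1 or 0.1 (0.024 and 0.025, adjusted p = 0.951 and 0.959). Defect vs normal (-0.12 ± 0.13, adjusted p = 0.407), implantation A vs defect (-0.01 ± 0.13, adjusted p = 0.948), implantation A vs normal (-0.14 ± 0.089, adjusted p = 0.169) and implantation B vs implantation A (-0.08 ± 0.087, adjusted p = 0.449) did not pass. Implantation B vs normal passed (-0.22 ± 0.087, adjusted p = 0.0203), but not without implantation B 2 (-0.21), implantation B 3 (-0.17) or normal 1 (-0.16), nor with DESeq2 (-0.33, adjusted p = 0.157), limma-voom (-0.18, adjusted p = 0.0519) or TPM (-0.31 and -0.32, adjusted p = 0.327 and 0.37). Other settings called the row where the count test did not: defect vs normal passed as lower with TPM (-1.01 and -1.06, adjusted p = 0.0239 and 0.0262) and with library size alone (-0.50, adjusted p = 0.00101), and was -1.52 without defect 3 (adjusted p = 0.0821). Implantation A vs defect passed as higher with TPM (0.97 and 1.03, adjusted p = 0.0377 and 0.0417), and implantation A vs normal as lower with RLE factors (-0.20, adjusted p = 0.0423). Implantation B vs implantation A passed as lower with library size alone (-0.33, adjusted p = 0.000891).

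Levels of different genes were compared as TPM, the authors' values scaled for length and depth. POSTN was the most abundant of the 10 in implantation B (2296 ± 5.87 TPM, SD, n = 3), implantation A (1326 ± 35.1), defect (1374 ± 50.2) and normal (239 ± 25.6), followed by FN1. In ECs+ implantation the order was reversed, with 239 ± 1.99 TPM for FN1 and 70.6 ± 2.02 TPM for POSTN. Among all 26654 genes POSTN ranked 1487 to 1562 in the 3 ECs+ implantation libraries, 48 to 49 in implantation B, 99 to 106 in implantation A, 99 to 105 in defect and 387 to 493 in normal. FN1 moved less in rank, from 130 to 136 in defect and 194 to 197 in implantation B to 402 to 420 in ECs+ implantation and 540 to 546 in normal. LRRC15 was the least abundant of the 10 in each group, with a mean of at most 1.11 ± 0.169 TPM, in implantation B. The TPM of CTHRC1 in defect, 134 ± 7.26, stood above that of CDH11, 116 ± 7.5, and in normal, at 5.05 ± 0.529, below that of CDH11, 23 ± 0.738.

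Ratios within a library do not depend on how libraries were scaled. POSTN over FN1, as TPM, was 0.291 to 0.303 in ECs+ implantation, 3.46 to 3.54 in implantation B, 3.07 to 3.15 in implantation A, 1.22 to 1.37 in defect and 1.09 to 1.41 in normal. Defect and normal overlapped in this ratio, and the other groups stood apart. FAP over ADAM12 ran from 20.1 to 21.7 in ECs+ implantation, 7.23 to 7.40 in implantation B, 1.95 to 2.10 in implantation A, 4.50 to 7.19 in defect and 1.27 to 1.63 in normal. Both ends of the defect range come from the shallow libraries, with 48 and 69 counts of FAP and 35 and 31 of ADAM12. In defect 3 this ratio was 5.17. The 2 ratios put the groups in different orders, and with 3 libraries a group an exact permutation test of either cannot go below a p of 0.1.

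**Figure D3:**
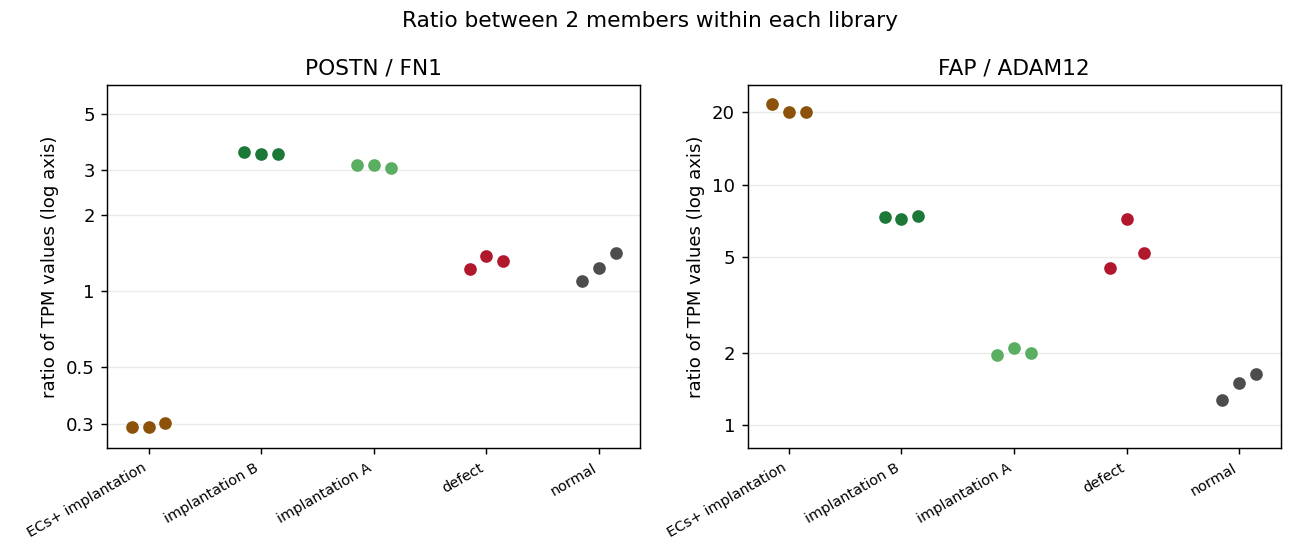
Ratio of TPM values (y axis, log scale) of POSTN to FN1 (left) and of FAP to ADAM12 (right) in each library, by group. ECs+ implantation has the lowest POSTN to FN1 ratios, near 0.3, and the highest FAP to ADAM12 ratios, above 20.

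Among themselves the 10 genes fell into more than 1 pattern over the groups. Likeness was measured as the root mean square difference between 2 genes in group means of log2 CPM centred over the 5 groups, where 0 means the same pattern. FN1 and CDH11 were the most alike pair (0.187), followed by FN1 and FAP (0.326) and TNC and CDH11 (0.379). CTHRC1 and INHBA were the least alike (2.20), followed by POSTN and INHBA (2.12). Against the mean of the 10, CDH11 lay nearest (0.174) and INHBA farthest (1.31), with POSTN at 1.01, CTHRC1 at 0.972 and LRRC15 at 0.930. LRRC15 and INHBA had negative centred values in defect, -0.69 and -0.83, where the 2 shallow libraries held 0 to 2 counts of them. By group mean of CPM, 7 of the 10 genes were highest in defect, 2 in implantation B (POSTN and LRRC15) and 1 in ECs+ implantation (INHBA), while 6 were lowest in normal, 3 in ECs+ implantation (POSTN, ADAM12 and ITGA11) and 1 in defect (INHBA). By TPM, CTHRC1 and LRRC15 were lowest in ECs+ implantation instead. The places of LRRC15 and INHBA rest on defect means that include the shallow libraries. In defect 3 alone LRRC15 stood at 5.09 CPM, above implantation B (3.49 to 4.63). INHBA stood there at 23.6 CPM, also above implantation B (20.1 to 22.7).

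Of genes outside the 10 with a symbol and a mean log2 CPM of at least 3, the 6 nearest to the mean pattern were PODN (podocan, a leucine-rich matrix protein, 0.0896), TSKU (tsukushi, a secreted leucine-rich protein, 0.105), CLMP (an adhesion molecule of cell junctions, 0.142), FJX1 (0.145), ANLN (anillin, which binds actin in dividing cells, 0.147) and CPXM2 (a secreted carboxypeptidase-like protein, 0.162). Each was higher in defect than in the mean of its groups and lower in ECs+ implantation and normal. The mean pattern they were set against includes the INHBA row, of unsettled identity, and LRRC15, at low counts. For single members the nearest gene was TENM1 for POSTN (0.233), ADAMTS5 for FN1 (0.0825), SERPINF1 for TNC (0.158), SERPINE2 for FAP (0.132), COL6A3 for ITGA11 (0.138) and TGFB2 for CDH11 (0.0872). TMEM119, the nearest to CTHRC1, was farther off at 0.439, and LAMB3, the nearest to ADAM12, at 0.360.

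**Figure D4:**
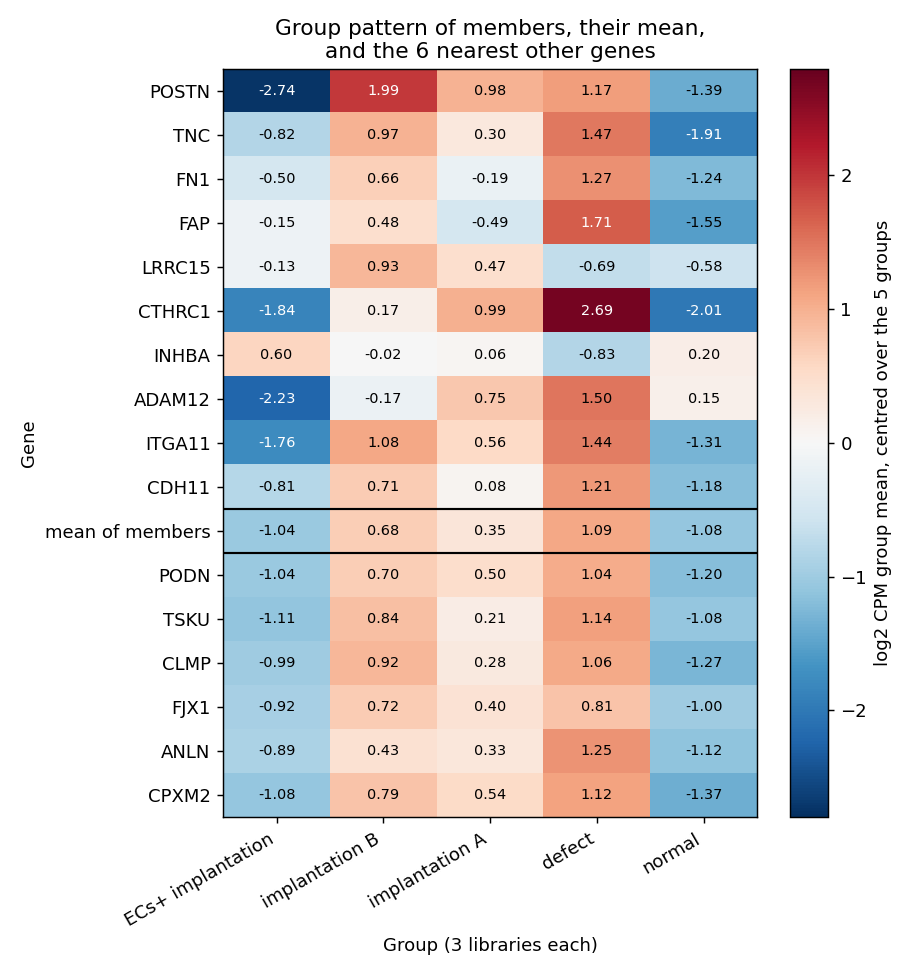
Group means of log2 CPM centred over the 5 groups (colour and printed value) for the 10 genes, their mean, and the 6 nearest other genes, with groups as columns. The mean is lowest in normal (-1.08) and ECs+ implantation (-1.04) and highest in defect (1.09), and INHBA runs the other way in ECs+ implantation (0.60). In TPM, INHBA in ECs+ implantation overlapped normal. The mean includes INHBA and LRRC15, which had 0 to 2 counts in defect 1 and defect 2.

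A list of receptors and partners of the 10 proteins, which includes integrins and activin receptors, moved with them in part. In this and the following lists, leading genes are those with the smallest p, not the largest change. The shares of all genes tested called higher and lower, given above for each comparison, are the background to these counts. Of 24 receptors and partners tested, 2 were higher and 18 lower in ECs+ implantation than in implantation B, led by TGFBR3, the co-receptor betaglycan (-1.02), BMP1, which processes procollagen (-1.08), and ITGA8, an integrin chain that binds tenascin-C and fibronectin (-1.92). In defect vs normal 17 were higher and 1 lower, led by ITGA8 (3.05), ITGB1, the partner of ITGA11 (1.46), and CTNNB1, beta-catenin, which cadherins bind (1.42). FST, follistatin, which binds and blocks activin, was the 1 that fell (-1.04). In implantation A vs defect 1 was higher and 14 were lower, led by ITGB5 (-0.98), DPP4, the closest relative of FAP (-1.67), and TGFBR3 (-0.80). The one that rose was FST (0.56). Against normal, 14 were higher and 4 lower in implantation A, with ITGA8 (2.34), ITGB1 (0.85) and ITGAV (0.84) leading. ITGB6, an integrin chain of epithelium, had a log2 fold change of -4.70 in ECs+ implantation vs implantation B, in a group where keratinocyte markers summed to under 4 CPM. The share that epithelium had in it was not tested. Median log2 fold changes of this list were -0.47, 0.79, -0.33 and 0.31 for ECs+ implantation vs implantation B, defect vs normal, implantation A vs defect and implantation A vs normal. ITGB1, which ITGA11 needs on the surface, stood at 367 to 394 CPM in ECs+ implantation, 501 to 513 in implantation B, 403 to 409 in implantation A, 538 to 642 in defect and 213 to 242 in normal.

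Other genes known in activated fibroblasts, 27 of 28 with enough counts to be tested, split along a similar line. Compared with implantation B, 23 were lower and 3 higher in ECs+ implantation (median log2 fold change -1.17), led by COL11A1 (-3.93), THBS2, thrombospondin-2 (-3.66), and COL12A1 (-3.43). The 3 that rose were ACTA2 (0.32), TAGLN (0.91) and MMP11 (1.03). ACTA2 and TAGLN code for smooth muscle actin and transgelin, which mark myofibroblasts but are also the main contractile proteins of cavernous smooth muscle. In defect vs normal 23 were higher and 2 lower (median 2.73), led by THBS2 (5.40), SFRP4, a secreted Wnt inhibitor (5.47), and COL12A1 (4.16). There the value of ACTA2, -0.15, missed the threshold (adjusted p = 0.103), and TAGLN (-0.57) and MMP11 (-1.24) fell. In implantation A vs defect 19 were lower and 6 higher (median -0.94), led by COMP (-3.42), FNDC1 (-2.74) and ASPN, asporin (-3.02), while ACTA2 (1.28) and TAGLN (0.90) were among those that rose. In implantation A vs normal 25 were higher and 2 lower (median 1.11), with CTGF (3.12) and COL12A1 (2.64) among the leading genes. CTGF is a target of transforming growth factor beta. Against normal, 22 were higher and 3 lower in implantation B, and 18 higher and 6 lower in ECs+ implantation. Against implantation A, 18 were higher and 7 lower in implantation B. COL10A1 had 0 counts in ECs+ implantation and defect. Some genes of this list recur in lists below, so their counts are not independent. ACTA2 and TAGLN are also smooth muscle markers, PDGFRB is also a pericyte marker and RUNX2 is also a cartilage and bone marker.

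Contractile genes went with the members in some comparisons and not in others. ACTA2 stood at 917 to 995 CPM in ECs+ implantation, 724 to 757 in implantation B, 1558 to 1583 in implantation A, 541 to 695 in defect and 699 to 734 in normal. It was highest in implantation A, where TNC, FN1, FAP and CDH11 lay below both implantation B and defect. Of the 10 smooth muscle markers, 7 were higher and 3 lower in ECs+ implantation than in implantation B (all genes 37.8% and 38.1%). In defect vs normal 4 were higher and 4 lower, near the shares of all genes (32.0% and 31.9%). In implantation A vs defect 9 were higher and 1 lower (all genes 20.4% and 21.4%). Against normal, implantation A again had 9 higher and 1 lower (all genes 32.2% and 32.3%). In implantation A vs normal ACTA2 (1.12) and TAGLN (0.33) rose, as 9 of the 10 members did.

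Ligands, receptors, SMADs and latency proteins of transforming growth factor beta, the main known driver of fibroblast activation, were tested as 14 genes. In ECs+ implantation vs implantation B 10 were lower and 4 higher, led by TGFBI, a secreted protein induced by the pathway (-2.58), LTBP2 (-2.03) and LTBP3 (-1.18), which belong to a family of latency and microfibril proteins. In defect vs normal 11 were higher and 1 lower, led by TGFBI (3.68), LTBP2 (2.69) and the ligand TGFB3 (2.16). TGFB1 was the one that fell there (-0.22). In implantation A vs defect 1 was higher, the inhibitor SMAD7 (0.35), and 10 were lower, led by LTBP2 (-2.41), TGFBI (-1.92) and the signal transducer SMAD3 (-1.12). Implantation A had 11 higher and 2 lower than normal. The median log2 fold change of these genes was -0.72 in ECs+ implantation vs implantation B, 1.42 in defect vs normal, -0.58 in implantation A vs defect and 0.49 in implantation A vs normal.

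Markers of resting fibroblasts moved less evenly. Of 15 tested, 6 were higher and 9 lower in ECs+ implantation vs implantation B, led by GSN, gelsolin (1.07), APOD (1.46) and DCN, decorin (-1.18). There 37.8% of all genes tested were higher and 38.1% lower. In defect vs normal 11 were higher and 3 lower, led by LUM, lumican (4.53), DCN (3.60) and DPT, dermatopontin (4.26). In implantation A vs defect 5 were higher and 9 lower, and in implantation A vs normal 9 were higher and 6 lower. Of all genes tested, 32.0% were higher and 31.9% lower in defect vs normal. For implantation A the shares were 20.4% and 21.4% against defect, and 32.2% and 32.3% against normal. The summed level of the list is mostly GSN, which took 61.1% of it in defect and 90.3% in normal and which smooth muscle also expresses, so it is not read here as a measure of fibroblasts. PDGFRA, a receptor found on fibroblasts in general, stood at 119 to 124 CPM in ECs+ implantation, 374 to 388 in implantation B, 271 to 279 in implantation A, 380.4 to 547 in defect and 148 to 164 in normal. PDGFRA was thus ordered over the groups as the mean of the 10 genes was, apart from ECs+ implantation, where it was below normal (-0.36, adjusted p = 1.93e-09). POSTN over PDGFRA, as a ratio of TPM, was 2.78 to 2.88 in ECs+ implantation, 23.7 to 24.5 in implantation B, 16.4 to 17.0 in implantation A, 10.2 to 13.4 in defect and 5.32 to 5.92 in normal, with no overlap between groups. The part that the number of fibroblasts had in the levels of the 10 genes was not tested.

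**Figure D5:**
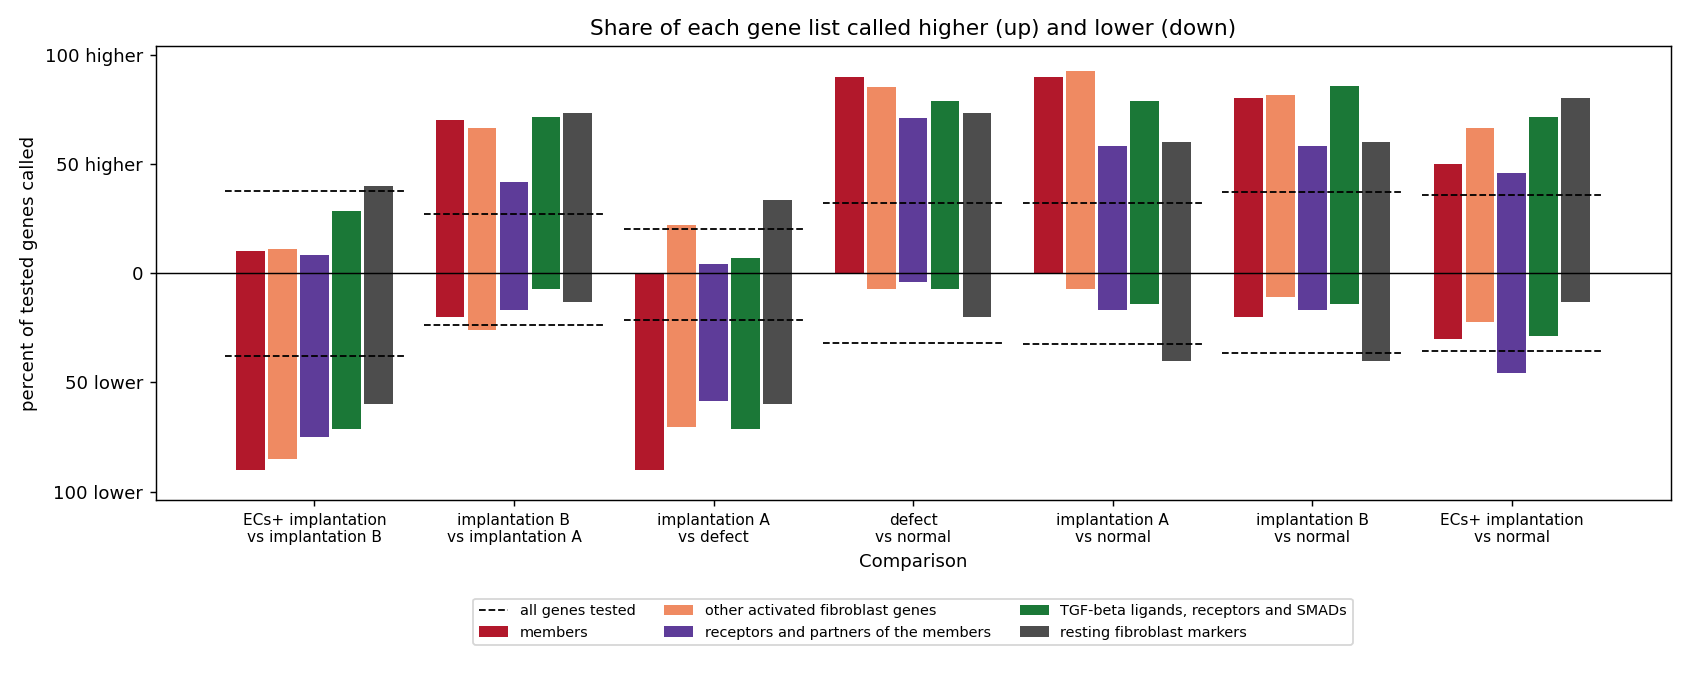
Percent of the tested genes of each list called higher (upward bars) and lower (downward bars) in 7 comparisons, with dashed lines at the percent of all genes tested. In defect vs normal 9 of 10 members are higher, with a dashed line at 32.0%, and in ECs+ implantation vs implantation B 9 of 10 are lower, with a dashed line at 38.1%.

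Markers of other cells moved between the same groups. The 10 macrophage markers summed to 404 to 416 CPM in ECs+ implantation, 1022 to 1030.1 in implantation B, 329 to 337 in implantation A, 813 to 1146 in defect and 478 to 518 in normal, with none at 0. Of them 9 were lower and 1 higher in ECs+ implantation vs implantation B, 10 of 10 higher in defect vs normal, and 10 of 10 lower in implantation A vs defect. Macrophages also express FN1. The 10 endothelial markers summed to 3756 to 3858 CPM in ECs+ implantation, 1851 to 1869 in implantation B, 2263 to 2292 in implantation A, 2249 to 2795 in defect and 3867 to 4137 in normal. Of them 9 were higher and 1 lower in ECs+ implantation vs implantation B, 1 higher and 8 lower in defect vs normal, and 3 higher and 4 lower in implantation A vs defect. Proliferation genes, 10 in number, summed to 69.2 to 74.2 CPM in ECs+ implantation, 125 to 129 in implantation B, 143 to 149.6 in implantation A, 178 to 239.9 in defect and 77.9 to 80.7 in normal, and 9 of them rose in defect vs normal. Keratinocyte and urothelial markers, with the sums given above, had 6 of 8 higher in defect vs normal and 6 of 6 tested lower in ECs+ implantation vs implantation B. Of 8 cartilage and bone markers 5 were higher and 2 lower in defect vs normal, and of the 7 tested 1 was higher and 5 lower in ECs+ implantation vs implantation B. Pericyte (2 higher and 2 lower of 8), Schwann cell (3 and 3 of 8) and adipocyte markers (1 and 4 of 5) were split in defect vs normal. Of all genes tested, 32.0% were higher and 31.9% lower there, near the pericyte and Schwann cell shares. The part of these other cells in the levels of the 10 genes was not tested.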

How the data were processed

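Polyadenylated RNA of 15 samples was made into libraries with a TruSeq kit, per the labels. HISAT2, HTSeq, fastp, DESeq2 and the build Sscrofa11.1 are named, without settings, in the submitters' processing notes. The authors deposited raw counts per gene and TPM values for the same genes, but the sources used here do not say how TPM was computed or whether reads were counted by strand. Columns were matched to samples by title.

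Counts were tested with edgeR 4.0.16 (limma 3.58.1, R 4.3.3): filterByExpr, TMM, robust glmQLFit and a two-sided glmQLFTest, with p-values adjusted by Benjamini-Hochberg over all genes, calling genes at 0.05. One fit held the 9 libraries of implantation A, defect and normal, ECs+ implantation and implantation B had one of 6, and the 3 comparisons outside the design one of 15. SEs are Wald errors of the fitted model. Centred log2 CPM used a prior count of 2. The 10 genes and the 13 other lists were chosen with earlier results of these data known. CTGF and WISP1 stand for CCN2 and CCN4. Named were the 10 genes, up to 3 leading genes (smallest p) of a list (1 gene is not reported here), the 6 nearest in pattern, and, chosen after their values were seen, the exceptions to a list's direction, the nearest gene of single members, and PDGFRA, ITGB1, ITGB6, ACTA2, TAGLN, COL10A1, UPK2, MYH11 and PECAM1. Alternatives were other scalings and filters, DESeq2 1.42.0, limma-voom, limma-trend on log2 of TPM plus 1 or 0.1, other sets of libraries, a replicate block and leaving out each library. Limma-voom was run with quality weights for the libraries wherever it is named. The scripts were tested on simulated counts. Coordinates come from RefSeq's table of Sscrofa11.1.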

Additional observations from a re-analysis of the deposited data

How the results depend on the processing

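Under the 107 alternatives, between 6 and 10 of the 10 genes were called per comparison, counted without regard to direction. The lowest number, 6, came in implantation A vs defect and in ECs+ implantation vs normal. Of single fold changes under alternatives, 999 kept direction and side of the threshold, 50 lost the call, 6 gained one and 15 turned in sign, all of the last in genes at low counts or near 0. For implantation A vs defect, LRRC15 was 0.18 and 0.88 with TPM (pseudocounts 1 and 0.1) and ran from -0.75 to 0.48 when 1 library was left out. INHBA there was 0.051 with RLE factors, 0.30 with library size alone, 0.24 with DESeq2, 0.41 with limma-voom, 0.97 and 1.03 with TPM, 0.057 with those 6 libraries alone, and -0.062 to 1.39 with 1 library left out. By limma-trend on TPM, INHBA passed there (adjusted p = 0.0377 and 0.0417). CTHRC1 in ECs+ implantation vs normal was -0.15 and -0.19 with TPM. Most lost or gained calls were of LRRC15 and INHBA. The cause was not tested.

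Counts of all genes called varied more. DESeq2 called 6192 in implantation B vs implantation A (edgeR 9307), 3792 in implantation A vs defect (7465), 7436 in defect vs normal (11407) and 6876 in implantation A vs normal (11522). Limma-voom called 1799 in implantation A vs defect and 5353 in defect vs normal. With TPM plus 1 and plus 0.1 there were 3537 and 3102 in implantation B vs implantation A, 3299 and 2954 in implantation A vs normal, 7838 and 6850 in implantation B vs normal (13511) and 7453 and 6738 in ECs+ implantation vs normal (13056). Leaving out 1 library gave 1455 to 7556 in implantation A vs defect and 3521 to 11950 in defect vs normal, both lowest without defect 3.

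Scaling by library size alone shifted the median of all genes and with it the split of all calls into higher and lower, which was 8687 and 4894 in ECs+ implantation vs implantation B (6501 and 6547 with TMM), 2383 and 8512 in implantation B vs implantation A (4978 and 4329), 7931 and 1761 in implantation A vs defect (3642 and 3823), 3456 and 8894 in defect vs normal (5715 and 5692) and 4629 and 9431 in implantation B vs normal (6796 and 6715). With TPM plus 1 the split was 4347 and 8399 in ECs+ implantation vs implantation B, 1012 and 2525 in implantation B vs implantation A, 4694 and 959 in implantation A vs defect, 2562 and 5442 in defect vs normal, 2231 and 1068 in implantation A vs normal and 1666 and 5787 in ECs+ implantation vs normal.

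The replicate numbers are not said to pair the libraries. Same-numbered libraries correlated between -0.16 and 0.18 in their deviations from group means. With 3 libraries a group and 2 shallow defect libraries, this cannot exclude pairing. With a replicate block, POSTN (-0.20, adjusted p = 0.104) and LRRC15 (-0.71, adjusted p = 0.057) no longer passed in implantation A vs defect, where 7 of the 10 genes were called and INHBA was 0.083. The block changed no other call of the 10 genes. Depth limits the defect values of LRRC15, INHBA and ITGA11 most.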
